A study of Mus musculus with 2 samples.

Results

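Monocytes are white blood cells that leave the bone marrow, travel in the blood and enter inflamed tissue and tumors, where they can become macrophages. Classical monocytes of the mouse carry the surface protein Ly6C and the chemokine receptor CCR2, which draws them into tissue. Patrolling monocytes carry little Ly6C, crawl along the vessel wall and depend on the nuclear receptor NR4A1. Both carry the CSF1 receptor, and both have much lysozyme 2, which macrophages have as well, whereas the C1q complement genes mark macrophages settled in tissue.

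The cells described here are 56 monocyte-like cells among 9844 barcodes that passed the quality limits, of 14035 barcodes in all. They were chosen by 5 conditions on their own unique molecular identifiers (UMIs, each of which counts 1 captured transcript): at least 1 UMI of *Csf1r*, at least 1 of *Lyz2*, 0 of *C1qa*, *C1qb* and *C1qc*, 0 of *Cd3d*, *Cd3e* and *Cd3g*, and under 20 of the pigment genes *Pmel*, *Mlana*, *Dct* and *Tyrp1*. These cells made up 0.569% of the filtered barcodes (exact binomial 95% interval, 0.430 to 0.738%). Because they were selected on these genes, the levels of the genes of the rule are a description only.

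The cells came from tumors grown in the skin of C57BL/6J mice after intradermal injection of 100000 B16 melanoma cells, either the control line or B16–IL-33, a line that overexpresses the cytokine IL-33, and were taken on day 9. Mouse age was not given in the sources used here. Cells were sorted for TCR-β, the labels call them T cells, and the tumors were mixed after hashtag labelling, so that 1 pool gave 1 expression library, 1 hashtag library and 1 T cell receptor library. The pool is therefore 1 sample, cells within it are not replicates, and no test was possible; intervals below are exact 95% intervals and cover counting error only.

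The 56 cells held 330849 UMIs. A cell had 1190 to 20140 UMIs with a median of 5075, and 548 to 3189 detected genes with a median of 1635.5. They were set beside 101 macrophages, defined by at least 3 C1q UMIs and no CD3 UMI, with a median of 5043 UMIs, and beside 8006 T cells with at least 2 CD3 UMIs and no *Csf1r* or C1q UMI, with a median of 2741. More than 2500 genes were detected in 4 of the 56 monocyte-like cells (7.14%), in 31 of the macrophages (30.7%) and in 503 of the T cells (6.28%). C1q took 0.632% of the macrophages' UMIs, and at that rate the shallowest monocyte-like cell would have held 7.52 C1q UMIs and the median one 32.1. Of the macrophages' 5314 C1q UMIs, 4647 came from the 49 that also had a *Csf1r* and a *Lyz2* UMI. Both groups were chosen on C1q, so these values cannot tell whether the count of 0 reflects more than selection.

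The T cell receptor library was not used by the rule. The groups were still chosen on T cell transcripts, with 0 CD3 UMIs in monocyte-like cells and macrophages and at least 2 in T cells. The shares with a receptor chain are therefore a description. A productive receptor chain was found for 1 of 56 monocyte-like cells (1.79%, 0.0452 to 9.55%), for 2 of 101 macrophages (1.98%, 0.241 to 6.97%) and for 5549 of 8006 T cells (69.3%, 68.3 to 70.3%). The only monocyte-like cell with one had a beta chain joining TRBV26 to TRBJ2-1, read from 2 UMIs. Its junction, the stretch that makes a receptor unique, is shown because it is the one receptor read in these cells, and it was found in no other barcode:
junction of the beta chain: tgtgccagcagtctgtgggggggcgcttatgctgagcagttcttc
That cell held 145 *Lyz2* UMIs, 94 *Spp1* UMIs and 0 UMIs of *Trac*, *Trbc1* and *Trbc2*. Whether it was 2 cells in 1 droplet was not tested, and no doublet caller was run.

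Hashtags tie a cell to a tumor. All 56 barcodes were in the hashtag library, but 4 of them carried a tag UMI (7.14%, 1.98 to 17.3%), against 875 of the T cells (10.9%, 10.3 to 11.6%). The library itself was not shallow: at the median a monocyte-like barcode had 1433.5 UMIs that the deposited table counts as matching none of the 4 tags, and a T cell barcode had 1353. The tags on these 4 cells are shown because they are the whole of the evidence on tumor of origin, with 2 UMIs for each tag:
tag B16_1: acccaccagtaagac
tag B16_2: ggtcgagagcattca
Each of the 4 cells had 1 tag UMI, and each of these tags was of the control tumors. The share from B16–IL-33 was thus 0 of 4, with an interval up to 60.2%, whereas it was 13.7% (11.5 to 16.2%) of the 868 T cells with tags of 1 tumor. A call from 1 tag UMI beside so many unmatched ones is weak, so the tumor of origin of the monocyte-like cells is not read from it, and no comparison of B16 with B16–IL-33 was made.

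Markers of other cell types were read over whole lists. Of 16 T cell genes, 5 were at 0, and the list summed to 29 UMIs in 20 cells with at most 3 in a cell, or 87.7 CPM (counts per 1000000 UMIs of the group), against 5017 CPM in T cells. Of 12 neutrophil genes, 8 were at 0, among them *S100a9*, *Ly6g*, *Cxcr2* and *Retnlg*; *S100a8* had 3 UMIs, *Csf3r* had 9, and *Mmp8* had 24, of which 16 came from 1 cell. Of 16 dendritic cell genes, 7 were at 0, among them *Flt3*, *Zbtb46*, *Xcr1* and *Siglech*, while *Bst2*, which many cells induce in response to interferon, had 160 of the list's 257 UMIs. Dendritic cell genes that were found, and that were at least 4-fold higher than in T cells, were *Cd209a*, *Itgax* with 24 UMIs in 12 cells, *Mgl2* with 20 in 3, *Clec10a* with 18 in 7 and *Batf3* with 11 in 10. The list summed to 777 CPM in monocyte-like cells, 785 CPM in macrophages and 413 CPM in T cells, and its part in the results below was not tested. Of 8 mast cell and basophil genes 7 were at 0, of 10 stromal genes 8, of 6 natural killer cell genes 3 and of 6 B cell genes 2, and 17 of the 23 B cell UMIs were of *Ighm*. Of 8 melanoma genes outside the rule, 3 were at 0, and 164 of the list's 190 UMIs were of *Apoe*, a lipid carrier that macrophages make as well, and 20 of *Mitf*. A count of 0 over these cells allows a level of up to 9.07 CPM.

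Single cells did stand apart. One cell held 749 UMIs of *Hbb-bs*, 412 of *Hba-a1* and 353 of *Hba-a2*, the globin genes of red blood cells, together with 2 *Csf1r* and 5 *Lyz2* UMIs. Globin genes are left out of what follows for that reason. Another cell held 17 of the 19 UMIs of *Cd209a*, a lectin of monocyte-derived dendritic cells, with 156 *H2-Ab1* UMIs, all 7 UMIs of the proliferation gene *Mki67*, and 1 *Csf1r* and 2 *Lyz2* UMIs.

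Markers of monocytes outside the rule were plentiful. Of 16 classical monocyte genes, a cell held UMIs of 9.5 at the median and of 2 at the least, and 54 of 56 cells had at least 3. *Plac8*, a gene of circulating myeloid cells, was found in 46 cells, with 0 to 68 UMIs a cell and a median of 8.5. *Ccr2* was found in 36 cells, with at most 8 UMIs. *Ly6c2*, which encodes Ly6C, was found in 28 of 56 cells, with at most 27 UMIs, so that the cells fell evenly into those with and those without it. Of the other 2 genes named as markers of the group, *Vcan*, which encodes the matrix proteoglycan versican, was found in 20 cells with at most 5 UMIs, and *Inhba*, which encodes the subunit of activin A, in 10. The marker *Inhba* thus described a minority, and the cells are called monocyte-like below.

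Against macrophages, 5161 genes had at least 20 UMIs over both groups. Of these, 364 (7.05%) were at least 2-fold higher in monocyte-like cells with an interval above 1, and 397 (7.69%) were at least 2-fold lower with an interval below 1. The median ratio of all genes was 0.953. C1q chose both groups, so all ratios between them are a description.

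All 16 classical monocyte genes had a ratio above 1, and 13 passed the 2-fold limit, with a median ratio of 4.54. The highest ratio was that of *Ifitm6*, a membrane protein gene of the interferon-induced transmembrane family, at 199 CPM (154 to 254) against 16.6 CPM in macrophages, a ratio of 12 (6.66 to 23.1). *Plac8* stood at 2306 CPM against 205 CPM, a ratio of 11.3 (9.54 to 13.4). *Ly6c2* (chr15:75108158-75111970 in GRCm38) stood at 641 CPM against 74.9 CPM, a ratio of 8.55 (6.43 to 11.5), and 52.4% of the UMIs in macrophages came from 1 cell. *Hp*, which encodes the haemoglobin-binding protein haptoglobin, had a ratio of 7.28 (4.42 to 12.4), *Chil3*, a chitinase-like secreted protein, 6.91 (4.89 to 9.91), and *Vcan* 4.97 (2.95 to 8.61). *Ccr2* had a ratio of 4.12 (2.98 to 5.73). The exceptions were *F13a1* at 1.16 (0.899 to 1.5), *Itgam* at 1.29 (0.945 to 1.75) and *Fn1* at 1.78 (1.37 to 2.32). Without the cell that held most of its UMIs, *Ifitm6* had a ratio of 10.4, *Plac8* of 10.6 and *Ly6c2* of 7.55.

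After each cell was thinned to 1500 UMIs, which left out 2 monocyte-like cells and 27 macrophages, *Plac8* was found in 72.2% of monocyte-like cells and 20.3% of macrophages, against 82.1% and 21.8% before. *Ly6c2* was found in 40.7% and 6.76%, against 50% and 14.9% before. The order of the groups was the same at equal depth for both genes.

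**Figure D1:**
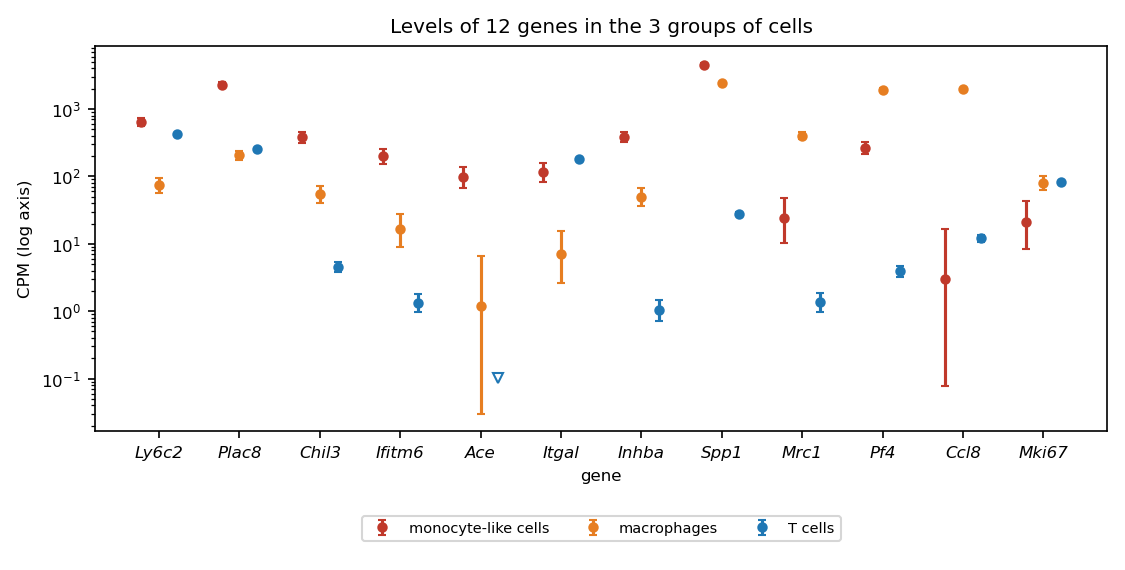
Level of 12 genes in CPM (log axis) in monocyte-like cells (red), macrophages (orange) and T cells (blue). Points are sums over the cells of a group and bars are exact Poisson 95% intervals, which cover counting error only; the open triangle marks *Ace* in T cells, which had no UMI, at the 0.100 CPM that a count of 0 allows. *Plac8* lies at 2306 CPM in monocyte-like cells and 205 CPM in macrophages, whereas *Mrc1* lies at 24.2 and 403 CPM.

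Some of these genes stood high in T cells as well. *Ccr2* stood at 308 CPM in monocyte-like cells and 310 CPM in T cells, a ratio of 0.994, and *Ly6c2* at 641 and 426 CPM, a ratio of 1.5. *Chil3* at 4.49 CPM, *Ifitm6* at 1.34 CPM and *Hp* at 0.201 CPM in T cells were far below their levels in monocyte-like cells.

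Of 12 patrolling monocyte genes, 9 reached 20 UMIs over both groups. Of these, 6 passed the 2-fold limit upward and 1 downward. *Ace* (chr11:105967945-105989964), the gene of angiotensin-converting enzyme and a marker of patrolling monocytes, had 32 UMIs in 12 monocyte-like cells, 1 UMI in macrophages and 0 in the T cells, which is at least 963-fold higher than in T cells. Its ratio to macrophages was 81.3, with an interval from 13.6 to 3312 that follows from the single UMI. *Itgal*, the alpha chain of the integrin LFA-1, had 38 UMIs in 19 cells against 6 in macrophages, a ratio of 16.1 (6.75 to 46.6). *Nr4a1* had 128 UMIs in 20 cells and a ratio of 9.86 (6.68 to 14.9), and *Spn*, which encodes CD43, a ratio of 5.45 (2.09 to 15.8). *Itgal*, *Spn* and *Nr4a1* are also genes of T cells, where they stood at 180, 148 and 175 CPM. *Adgre4* had 14 UMIs against 1, and *Treml4* 11 against 3, both too few for the limit. The list did not move as a block: the fatty acid carrier *Fabp4*, which macrophages use too, had a ratio of 0.329 (0.247 to 0.432) and the scavenger receptor *Cd36* 0.722.

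The macrophage list pointed the other way. Of its 19 genes with at least 20 UMIs, 12 were at least 2-fold lower and 1 higher, with a median ratio of 0.334. *Mrc1*, which encodes the mannose receptor CD206, had 8 UMIs in 5 cells against 339 UMIs in macrophages and was 16.7-fold lower (8.36 to 38.9). *Ms4a7* was 18.7-fold lower (7.91 to 58.2). *Folr2*, the folate receptor of resident macrophages, had 1 UMI against 86. *Cd72* had 0 UMIs against 41, at least 5.38-fold lower. *Trem2* was 2.99-fold lower (2.20 to 4.16) and *Gpnmb* had a ratio of 0.375. *Pf4* was 7.26-fold lower, and 57 of its 88 UMIs came from 1 cell. Not all macrophage genes were low: *Fcgr1*, the high-affinity IgG receptor, had a ratio of 1.66 (1.35 to 2.04).

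Genes with 50 or more UMIs at the bottom of the ratios included 2 secreted factors of tissue macrophages. The chemokine gene *Ccl8* had 1 UMI in monocyte-like cells and 1641 UMIs in 34 macrophages, and *Igf1* had 1 UMI against 183. *Cbr2*, a marker of resident macrophages, had 0 UMIs against 72 and was at least 9.44-fold lower. *Retnla* had 2 UMIs against 289, of which 54.7% came from 1 macrophage. *Ifnb1* had 0 against 223 UMIs, and 97.8% of those came from 1 macrophage.

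**Figure D2:**
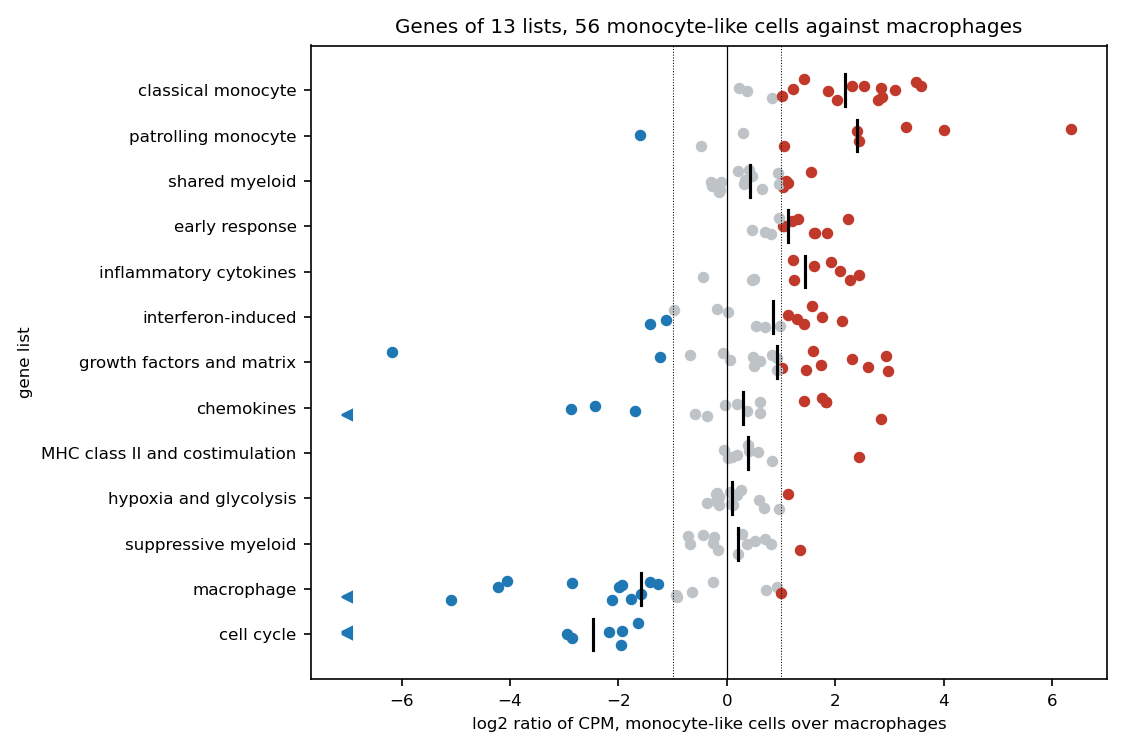
Log2 ratio of CPM in the 56 monocyte-like cells over the 101 macrophages for the genes of 13 lists with at least 20 UMIs over both groups. Each point is a gene, black bars are list medians, dotted lines mark 2-fold, red and blue points passed the limit upward and downward, grey points did not, and triangles at the left edge stand for genes with 0 UMIs in monocyte-like cells or a log2 ratio below the axis (*Ccl8*). All 16 classical monocyte genes lie right of 0, and 3 of 19 macrophage genes do.

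All 8 cell cycle genes were at least 2-fold lower than in macrophages, with a median ratio of 0.180, or 0.238 with the 2 genes at 0 set to the 3 counts that a count of 0 allows. The list summed to 45 UMIs in 18 monocyte-like cells, or 136 CPM, against 723 CPM in macrophages and 652 CPM in T cells. *Stmn1* was 7.74-fold lower (3.98 to 17.2) and *Pcna*, the clamp of the replication machinery, 3.12-fold lower (1.78 to 5.89). *Cdk1* had 0 UMIs against 46 and was at least 6.03-fold lower. *Mki67* had UMIs in 1 of 56 monocyte-like cells and in 16 of 101 macrophages. This pattern moved with the macrophages of many detected genes: when both groups were limited to 2500 genes, *Mki67* had a ratio of 1.04, *Ccnb1* of 1.78 and *Birc5* of 1.60, whereas *Pcna* stayed at 0.467 and *Cdk1* and *Mcm5* at 0. The part of doublets or of deep cells in the cell cycle values of macrophages was not tested.

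Of 18 genes shared by myeloid cells, 5 were at least 2-fold higher and none lower. *Cd14*, the co-receptor for bacterial lipopolysaccharide, had a ratio of 2.94 (2.47 to 3.51), and *Tyrobp*, an adaptor of activating receptors, 1.93 (1.80 to 2.08). The receptors for GM-CSF, a growth factor of myeloid cells, were higher as well, *Csf2ra* with a ratio of 2.12 (1.55 to 2.88) and *Csf2rb* with 2.68 (1.93 to 3.71). *F10*, which encodes coagulation factor X, was found in 33 cells and had a ratio of 4.05 (3.14 to 5.23), and *Napsa*, an aspartic protease, in 32 cells with a ratio of 7.46 (4.92 to 11.6). The cell with most UMIs of *Napsa* held 8. Other genes were uneven over the clusters described below. *Cd14* stood at 1250 CPM in cluster 1 and 937 CPM in cluster 2, but at 348 CPM in cluster 3 and 209 CPM in cluster 4. Cluster 1 held 56.25% of the *Csf2rb* UMIs.

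Of 12 early response genes, which switch on within minutes of stimulation or of handling, 8 were at least 2-fold higher and none lower. *Zfp36* had a ratio of 3.06 (2.69 to 3.48), the heat shock gene *Hspa1a* 4.71 (3.85 to 5.78) and *Fos* 2.30 (2.07 to 2.55). Against T cells of the same pool, 3 of the 12 genes passed the 4-fold limit upward, namely *Fos*, *Atf3* and *Ier3*, and none downward, with a median ratio of 2.21. Of all genes tested against T cells, 6.02% passed it upward and 8.44% downward, with a median ratio of 0.628. The part of tissue handling in these values, and in those of *Nr4a1* above, was not tested.

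The inflammatory cytokine list also holds *Il1rn*, the gene of the IL-1 receptor antagonist, and the regulatory genes *Il10* and *Tgfb1*. It summed to 2874 CPM against 1382 CPM in macrophages. At least 1 of its genes was found in 55 of 56 cells, with a median of 6.5 UMIs and at most 290 in a cell. *Il1rn* had more UMIs than *Il1b*, which was found in 21 cells. Of 10 genes with enough UMIs, 7 passed the 2-fold limit upward and none downward. *Il1b* had a ratio of 3.79 (3.11 to 4.63), but 121 of its 252 UMIs came from 1 cell, and without it the ratio was 2.10. *Il1a* had 42 UMIs in 4 cells, of which 29 came from 1, and *Tnf* had a ratio of 2.36 (1.59 to 3.51) with its top cell and 0.967 without it. *Nlrp3*, the sensor of the inflammasome that releases IL-1β, had a ratio of 5.40 (2.90 to 10.5) and 3.72 without its top cell, and *Osm*, the cytokine oncostatin M, 3.07 (2.14 to 4.42) and 2.56. The neutrophil attractant *Cxcl2* was found in 33 cells and had a ratio of 3.57 (3.32 to 3.83), and 2.85 without its top cell.

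Chemokines as a list did not move together: of 16 genes, 5 were at least 2-fold higher and 4 lower. *Ccl2*, the ligand of CCR2, was found in 30 monocyte-like cells and stood at 3842 CPM against 3912 CPM in macrophages, a ratio of 0.982 (0.920 to 1.05), although 388 of its 1271 UMIs came from 1 cell. *Ccl24* had a ratio of 2.67, yet 59 of its 62 UMIs came from 1 cell. *Cxcl9*, the interferon-γ–induced attractant of T cells, was found in 8 cells, with 63 and 41 UMIs in the 2 highest, and had a ratio of 3.38 (2.57 to 4.47). *Ccl4*, *Ccl5*, *Ccl8* and *Ccl12* were the lower ones. Of 5 chemokine receptors with enough UMIs, *Ccr1*, *Ccr2* and *Cxcr4* passed the limit upward and none passed it downward.

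The genes linked with suppression of T cells by myeloid cells were mostly within 2-fold. Of 13 with enough UMIs, 1 was higher and none lower. Over all genes tested the shares were 7.05% and 7.69%, so the counts do not set this list apart. *Clec4n*, which encodes the lectin dectin-2, was the higher one, with a ratio of 2.54 (2.17 to 2.98). *Arg1*, which encodes the arginine-consuming enzyme arginase 1, was found in 15 cells with a ratio of 0.627 (0.527 to 0.743), and *Nos2* in 7 cells with 1.22 (0.784 to 1.86).

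The list of MHC class II and costimulation genes, through which cells present antigen to CD4+ T cells, was uneven among the cells. Of its 9 genes with enough UMIs, 1 passed the 2-fold limit upward and none downward, beside 7.05% and 7.69% of all genes tested. *H2-Ab1* was found in 32 cells, with 0 to 156 UMIs a cell and a median of 1. Its ratio of 1.30 (1.17 to 1.45) dropped to 0.913 without the cell rich in *Cd209a*. *Cd74*, the chain that escorts these molecules, was found in 48 cells and had a ratio of 1.34 (1.27 to 1.41). Of 14 interferon-induced genes, 6 were at least 2-fold higher and 2 lower, with *Gbp2* at a ratio of 4.35 (3.41 to 5.57), *Zbp1* at 2.67 (2.01 to 3.55) and *Ifit3* at 0.373 (0.178 to 0.706). One macrophage held 46.7% of the *Ifit3* UMIs in that group, and against macrophages that also had a *Csf1r* and a *Lyz2* UMI the ratio of *Ifit3* was 1.11.

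Genes of the IL-33 pathway had few UMIs. *Il33* and *Egfr* were at 0. *Il1rl1*, the gene of the IL-33 receptor, had 1 UMI of 330849 against 1562 of 29856400 in T cells, a ratio of CPM of 0.0578. *Il1rap*, its partner chain, had 4 UMIs in 4 cells. *Areg*, the EGF receptor ligand amphiregulin, had 15 UMIs in 4 cells, 11 of them in 1, and stood at 45.3 CPM (25.4 to 74.8) against 361 CPM in T cells and 5.95 CPM in macrophages. Its ratio to macrophages was 7.63 (2.63 to 26.8), or 2.14 without the top cell.

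Against T cells, 11809 genes had at least 20 UMIs over both groups. At least 4-fold higher were 711 genes (6.02%), and at least 4-fold lower 997 (8.44%). Among genes with at least 50 UMIs, the highest ratios were those of *Hp* at 948, *Clec4n* at 554, *F10* at 548, *Gm9733* at 471, *Inhba* at 376, *Thbs1* at 358, *Igsf6* at 353, *Clec4e* at 346, *Mgst1* at 343 and *C3* at 313. All 18 shared myeloid genes and none of the 16 T cell genes were higher. *Lyz2*, which T cells should lack, was found in 221 of 8006 T cells (2.76%), at 17.2 CPM against 9499.8 CPM in monocyte-like cells.

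The 56 cells also differed among themselves. Clustering with the genes of the rule, receptor genes and mitochondrial genes held out gave 4 clusters of 15, 19, 8 and 14 cells. They were cut from the expression of these same cells, so what follows describes them and tests nothing. At a lower resolution of 0.4 the 14 cells of cluster 4 remained together and the other 42 formed 1 group.

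**Figure D3:**
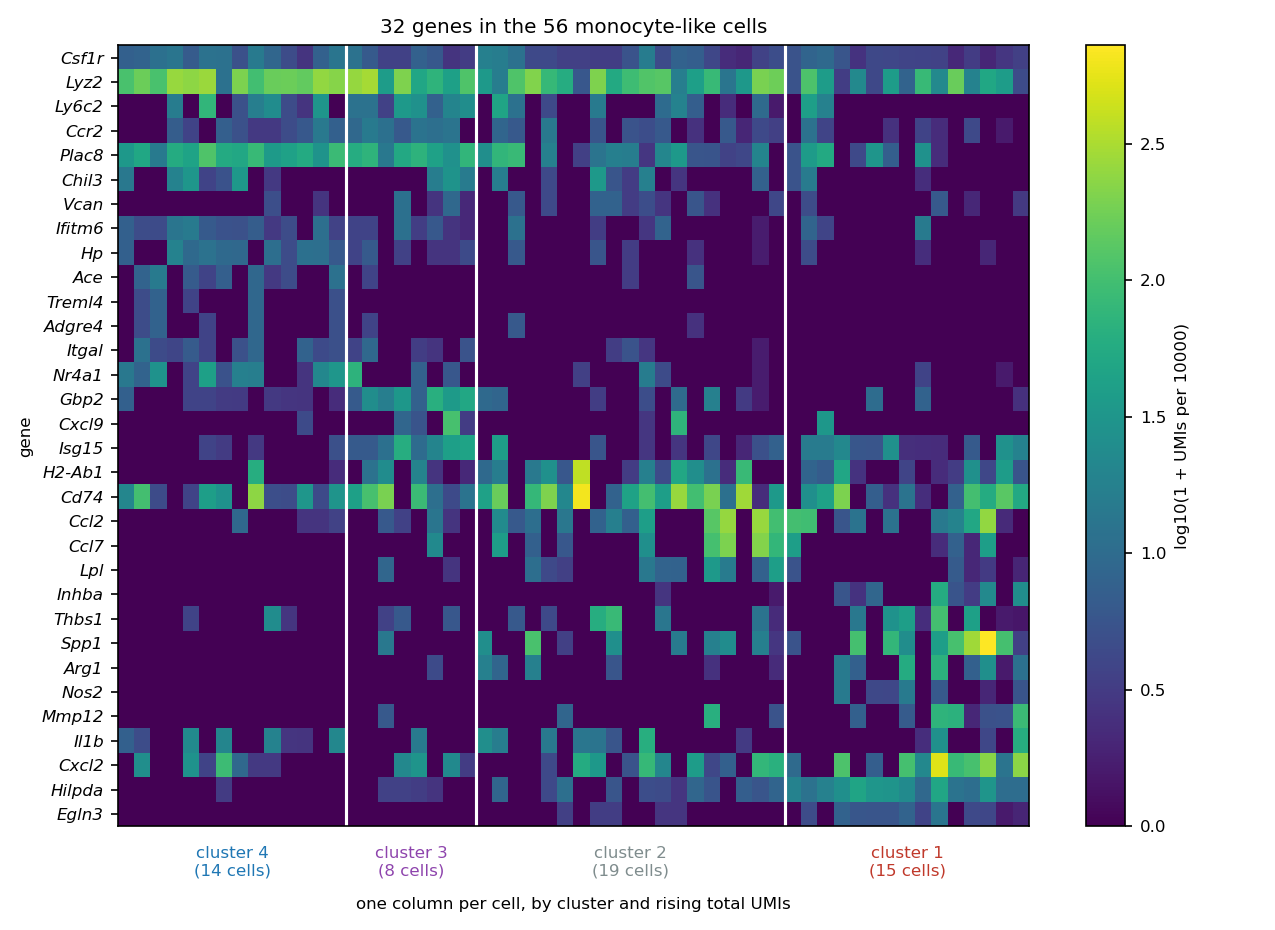
UMIs per 10000 of 32 genes (rows, log10 scale) in the 56 monocyte-like cells (columns), ordered by cluster and, within a cluster, by total UMIs. *Ace* and *Treml4* fill cells at the left and *Inhba*, *Nos2* and *Egln3* cells at the right; *Ace* was found in 9 of 14 cells of cluster 4 and in 0 of 15 cells of cluster 1.

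Cluster 4, with 14 cells and a median of 4764.5 UMIs, was led by *Ace*, *Cks2*, *Pou2f2*, *Pglyrp1* and *Hp*. *Ace*, *Pou2f2* and *Nr4a1* of the patrolling list were among its 10 leading genes, and the patrolling list took 27.0 UMIs per 10000 at the median of its cells against 5.65 over all 56. *Ace* was found in 9 of its cells, *Nr4a1* in 11, *Pou2f2* in 9 and *Treml4* in 5, and no cell of another cluster had *Treml4*. Some classical markers stood higher in these cells than over all 56: *Ly6c2* was found in 8 of 14 at 1203 CPM (641 CPM over all), *Ccr2* in 10 at 449 CPM (308 CPM over all) and *Plac8* in all 14 at 5630 CPM (2306 CPM over all), and the classical list took 173 UMIs per 10000 at the median against 117. The cells of the cluster with most *Ly6c2* held 27, 18, 12 and 8 UMIs of it. In the same order they held 1, 0, 1 and 4 UMIs of *Ace* and 15, 12, 0 and 8 of *Nr4a1*. The last of them also held 4 UMIs of *Treml4*, and the others none. Over all 56 cells, *Treml4* was found in 1 of the 28 cells with *Ly6c2* and in 4 of the 28 without. Other patrolling genes counted in this way did not lean so. *Ace* was found in 6 and 6, *Nr4a1* in 10 and 10 and *Cx3cr1* in 6 and 5. *Itgal* was found in 12 and 7, *Pou2f2* in 10 and 6 and *Adgre4* in 5 and 3. Every cell of the cluster held UMIs of the patrolling list, with 1.95 per 10000 at the least. With *Ly6c2* and patrolling genes both found in the cluster, also within the same cells, the cluster stays unnamed. *Vcan* stood lower, at 48.1 CPM in 2 cells against 136 CPM over all, and *Inhba*, *Spp1* and *Arg1* were found in none.

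Cluster 1, with 15 cells and a median of 7080 UMIs, was led by *Nos2*, *Inhba*, *Cxcl3*, *Tnfrsf9* and *Il7r*, followed by *Spp1*, *Gpnmb* and *Arg1*. No list gave 3 of its leading genes, and it stays unnamed. It held 127 of 129 *Inhba* UMIs, all 34 *Nos2* UMIs, 1396 of 1513 UMIs of *Spp1*, which encodes the matrix protein osteopontin, and 154 of 169 *Arg1* UMIs. *Hilpda*, a lipid droplet gene induced by lack of oxygen, was found in 15 of its 15 cells and in 1 of 14 cells of cluster 4. *Ly6c2* was found in 2 of its cells, *Ace* and *Itgal* in none. The cell with globin UMIs and the cell with the receptor chain were both in this cluster.

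Cluster 3, with 8 cells and a median of 4112.5 UMIs, was led by *Ccl24*, *Gbp2*, *Ifi47*, *Phf11b* and *Cxcl9*, most of them induced by interferon. All 8 cells held *Ly6c2*, *Gbp2*, *Isg15* and *Plac8*, and *Ccr2* was found in 7. The interferon-induced list took 98.4 UMIs per 10000 at the median of these cells (34.1 to 170), against 12.3 (0 to 45.2) in cluster 4. The lead of *Ccl24* came from 1 cell.

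Cluster 2, with 19 cells and a median of 4563 UMIs, was led by *Ccl7*, *Lpl*, *Ccl12*, *Pf4* and *Ccl2*, and stays unnamed. *H2-Ab1* was found in 14 of its cells, *Ly6c2* in 10, *Vcan* in 10 and *Plac8* in 16. The cell rich in *Cd209a* was among them. At a resolution of 1.2 it split into groups of 10 and 8, and 1 cell joined the cells of cluster 1.

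The contrast of cells with *Ace* and cells with *Inhba* is also given by single genes, chosen after their values were seen. The 12 cells with *Ace* held 8, 4, 4, 3, 3, 2, 2, 2, 1, 1, 1 and 1 UMIs of it. They included all 5 cells with *Treml4*, 7 of the 8 with *Adgre4*, a receptor of the adhesion family, and 8 of the 19 with *Itgal*. No cell with *Ace* had a UMI of *Inhba*, *Spp1*, *Arg1*, *Nos2* or *Mmp12*, genes found in 10, 20, 15, 7 and 12 of the other 44. *Ly6c2* was found in 6 of the 12 cells with *Ace* and in 22 of 44 without, and stood at 1027 CPM and 563 CPM. Of the 57 *Ly6c2* UMIs in the cells with *Ace*, 27 came from 1 cell.

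The 10 cells with *Inhba* (chr13:16011851-16031621) held 49, 43, 21, 5, 4, 2, 2, 1, 1 and 1 UMIs of it, so that 3 cells carried most. The total gave 390 CPM against 49.9 CPM in macrophages and a ratio of 7.81 (5.47 to 11.3), or 5.16 without the top cell. These cells were deeper, with a median of 8269.5 UMIs against 4481.5 in the other 46. Even so, *Plac8* was found in 4 of 10 against 42 of 46, *Chil3* in 0 against 21 and *Itgal* in 0 against 19. *Hilpda* was found in 10 of 10 against 22 of 46, *Spp1* in 7 against 13, *Arg1* in 7 against 8 and the elastase gene *Mmp12* in 7 against 5. At 1500 UMIs a cell, *Plac8* was found in 3 of 10 against 36 of 44, *Hilpda* in 9 against 16 and *Arg1* in 5 against 3. *Spp1* stood at 12318 CPM in cells with *Inhba* and 1488 CPM in the rest, but 709 of the 1161 UMIs came from 1 cell, and without it the level was 5351 CPM. *Vcan*, the other given marker, was found in 5 of 10 and 15 of 46.

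**Figure D4:**
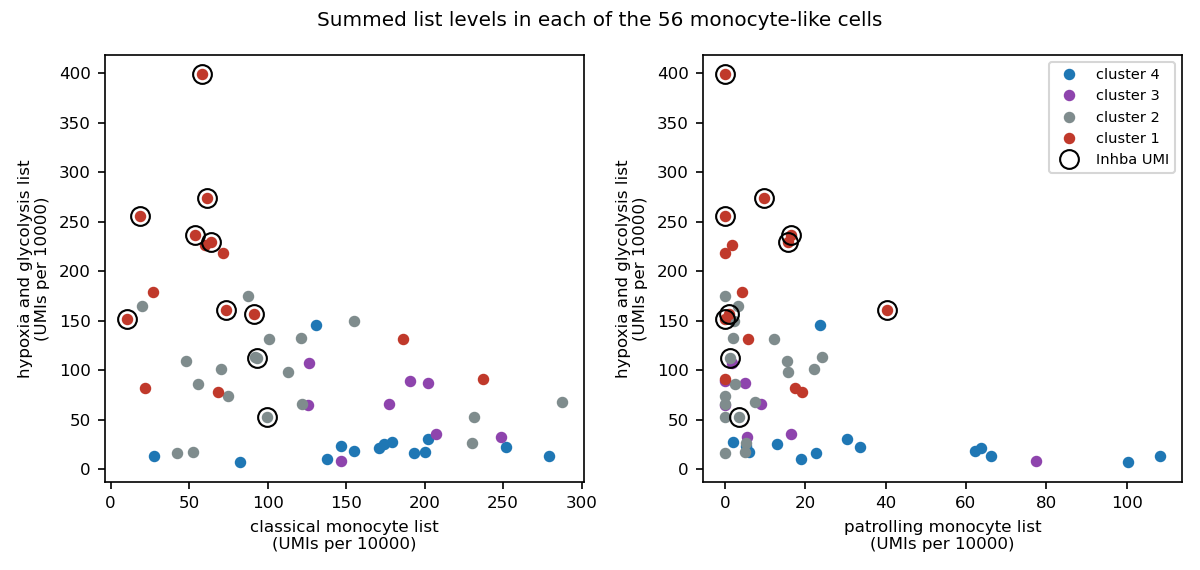
Summed UMIs per 10000 of the hypoxia and glycolysis list (vertical) against the classical monocyte list (left) and the patrolling monocyte list (right) in each of the 56 cells, coloured by cluster, with a ring round each cell that had an *Inhba* UMI. Cells of cluster 1 lie high, with a median of 179 UMIs per 10000 on the vertical axis, and those of cluster 4 lie low, with a median of 20.2.

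The hypoxia and glycolysis list was spread widely within the group. It ranged from 7.16 to 399 UMIs per 10000 over the 56 cells, with medians of 179 in cluster 1, 98.4 in cluster 2, 65.7 in cluster 3 and 20.2 in cluster 4. In sum, monocyte-like cells stood at 11803 CPM and macrophages at 11910 CPM for it. Of its 16 genes 1, *Ero1l*, passed the 2-fold limit upward and none downward, beside 7.05% and 7.69% of all genes tested. The ratio of *Ero1l* was 2.18 (1.75 to 2.71), and 1.33 without the cell that held 64 of its 158 UMIs. Across the 56 cells the level of the hypoxia and glycolysis list had a Spearman correlation of −0.478 with that of the classical monocyte list, −0.404 with the patrolling list and 0.588 with the macrophage list. These are descriptions across cells of 1 library that share depth, and the hypoxia and glycolysis list itself had a correlation of 0.503 with total UMIs. In the 56 cells, *Spp1* alone gave 1513 of the 2874 UMIs of the macrophage list.

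Genes of growth factors and matrix differed in how many cells carried them. Of 19 such genes, 8 were at least 2-fold higher than in macrophages and 2 lower. *Thbs1*, the matrix protein thrombospondin 1, was found in 21 cells with a ratio of 2.77 (2.33 to 3.29), *Vegfa*, the vessel growth factor, in 15 cells with 2.02 (1.34 to 3.02), and *Emilin2* in 40 cells with 3.32 (2.46 to 4.48). *Spp1* had a ratio of 1.90, but 709 of its 1513 UMIs came from 1 cell, and without that cell the ratio was 1.04. When all 15 cells of cluster 1 were left out, *Inhba* had a ratio of 0.189, *Spp1* of 0.229 and *Il1a* of 0.180, so that the higher totals of these genes belonged to that cluster.

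Cells just inside and outside the limits of the rule were as follows. The condition on *Csf1r* admitted 17 cells with 1 UMI and 39 with at least 2, and that on *Lyz2* admitted 5 cells with 1 or 2 UMIs. The 17 cells had 0 UMIs of *Ace*, and the 39 had all 32. *Plac8* stood at 1179 CPM in the 17 and 2716 CPM in the 39, and *Ccr2* at 306 and 309 CPM. *Spp1* stood at 10599 and 2382 CPM, but 709 of its 935 UMIs in the 17 came from 1 cell. A further 12 cells met all conditions but for 1 or 2 C1q UMIs, with *Plac8* at 1575 CPM, *Ly6c2* at 104 CPM, *Mrc1* at 149 CPM and *Spp1* at 11469 CPM. A further 31 cells met all but for 1 or 2 CD3 UMIs. In these, which the rule did not use, *Plac8* stood at 2538 CPM, *Ly6c2* at 995 CPM, *Vcan* at 136 CPM, *Inhba* at 407 CPM and *Mrc1* at 45.2 CPM, beside 2306, 641, 136, 390 and 24.2 CPM in the 56 cells. A productive receptor chain was found for 2 of the 31. Another 54 cells had *Lyz2* but no *Csf1r* UMI, at a median of 2036.5 UMIs, and 7 had *Csf1r* but no *Lyz2* UMI. In the 54 cells *Plac8* at 854 CPM, *Ly6c2* at 373 CPM and *Ccr2* at 94.4 CPM stood lower than in the 56. Genes of macrophages were mixed. *Ccl8* stood at 505 CPM in 4 cells and *Pf4* at 684 CPM in 12, against 3.02 and 266 CPM in the 56 cells. *Spp1* went the other way, at 1854 CPM against 4573 CPM. *Mrc1* stood at 56.6 CPM (29.3 to 98.9) against 24.2 CPM (10.4 to 47.6), and *Folr2* had 0 UMIs against 1.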

How the data were processed

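The authors deposited raw counts of UMIs per gene and barcode, UMI counts per hashtag, and a table of T cell receptor contigs with UMI counts for 1 pool of sorted tumor cells. The matrix header names Cell Ranger 3.1.0 and the submitters' processing notes list Cell Ranger 6.1.1. The reference joined the human genome with the mouse genome (build mm10), and mouse genes were used here. Of 31053 mouse gene identifiers, 30934 were found in GENCODE release M21, which gave the coordinates.

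Barcodes with at least 200 detected mouse genes and under 5% mitochondrial UMIs were kept, without an upper limit on genes. Counts were summed over the cells of a group and divided by their UMI total (CPM). Ratios have conditional binomial intervals, levels exact Poisson and shares Clopper-Pearson intervals, all at 95%; a count of 0 was read as up to 3 counts. A gene was counted as higher or lower at a ratio of at least 2 against macrophages or 4 against T cells, with an interval that excludes 1 and at least 20 UMIs over both groups. These limits rest on counting error, and cells vary more, so the share of the top cell is given. Thinning used 1 random draw of 1500 UMIs per cell. Clusters came from scanpy 1.11.5 (2000 variable genes, 20 principal components, 15 neighbours, Leiden resolution 0.8), and leading genes had at least 20 UMIs in at least 4 cells of the cluster. Python 3.11.15, NumPy 2.4.6 and SciPy 1.17.1 were used. The ratio was tested on simulated data. Genes were named from the lists, from the highest and lowest ratios at 50 or more UMIs, and as leading genes of clusters. The members and the gene lists were chosen with earlier results of these data known. Alternatives changed the limits on cells, the scaling, the macrophage rule and single cells. The values of 1 gene of the macrophage list are not reported here.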

Additional observations from a re-analysis of the deposited data

Results flagged for a closer look

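The combined reference also held human genes, which none of the comparisons used. In the 56 monocyte-like cells 33 UMIs in 24 cells were assigned to human genes, above the 3 that a count of 0 allows, or 99.7 CPM of mouse UMIs (68.7 to 140). The level was 105 CPM (83.9 to 129) in macrophages and 143 CPM (138 to 147) in T cells.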

How the results depend on the processing

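The pool is 1 sample, so no result has an error between animals, and each limit on counts rests on counting error alone. No paired analysis was possible because the tumors were mixed in 1 pool and 4 of the 56 cells carried a tag that tells them apart. Alternatives that used other macrophages, left out the globin cell, cluster 1, members above 12000 UMIs or single cells, or used another resolution were chosen after seeing the data. Over 95 genes and 17 alternatives, 1333 of 1609 ratios to macrophages stayed within the interval given in the report, 250 left it, and 26 whose interval excluded 1 changed direction.

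Against macrophages, 240 genes were higher and 128 lower with at most 2500 detected genes, 194 and 210 with at least 50 UMIs, and 115 and 62 after thinning to 1500 UMIs, where fewer UMIs were left to test. Against T cells, thinning gave 463 and 362. The share with a receptor chain was 0 among cells with at least 2 *Csf1r* UMIs. A resolution of 0.4 gave 2 clusters. Ratios that changed direction with at most 2500 genes were those of *Cd36* (1.46), *Mki67* (1.04), *Birc5* (1.60), *Ccnb1* (1.78), *Hilpda* (0.844) and *Tnf* (0.617). With at least 2 *Csf1r* UMIs *Spp1* had 0.990 and *H2-Ab1* 0.828, and with at least 3 *Lyz2* UMIs *H2-Ab1* had 0.892. With CPM taken per cell and then averaged, *Cd36* had 1.09, *Ccl24* 0.706 and *Fn1* 0.932. After thinning *Ccl24* had 0.783, *Top2a* 1.37 and *Tnf* 0.685. Against macrophages with *Csf1r* and *Lyz2*, *Ifit1* had 2.02 and *Ifit3* 1.11. Without cluster 1 *Spp1* had 0.229, *Inhba* 0.189, *Il1a* 0.180, *Cxcl3* 0.272, *Ero1l* 0.645 and *Hilpda* 0.336. Without the cell with most UMIs *Ccl24* had 0.132, *H2-Ab1* 0.913 and *Tnf* 0.967. Beyond what leaving out cells or UMIs does by construction, the cause was not tested.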
